A study of Mus musculus with 2 samples.

Results

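Nnmt and 9 other genes of NAD metabolism were followed in liver RNA-seq: Nampt, Nmnat1, Nmnat3, Nadsyn1, Qprt, Sirt1, Sirt3, Parp1 and Nnt. They were picked by symbol for nicotinamide clearance, NAD synthesis and NAD use, and all 10 were present among the 24421 genes counted. The choice was made with earlier results of these libraries known, so the values below are a description and carry no test. The series asks by its title which genes RORα, a nuclear receptor, alters in non-alcoholic steatohepatitis. It holds 1 library from mice labelled liver-specific RORα knockout (LKO; RORalpha f/f:Alb-Cre) and 1 from control mice (RORalpha f/f). Both groups were male C57BL/6 mice with floxed Rora alleles, started on a high-fat diet (HFD) at 6 weeks of age and kept on it for 12 weeks. Cre under the albumin promoter acts mainly in hepatocytes, so other liver cells such as Kupffer and stellate cells keep Rora. The sources used here do not give the number of animals behind each library.

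NAD carries electrons between the reactions of fuel oxidation and is consumed by enzymes that cleave it and release nicotinamide. Liver rebuilds it from nicotinamide through Nampt and the Nmnat enzymes, and makes it anew from tryptophan through the kynurenine route, Qprt, the Nmnat enzymes and Nadsyn1. Nnmt, nicotinamide N-methyltransferase, removes nicotinamide by methylating it with S-adenosylmethionine (SAM), which ties NAD precursors to the methyl donor pool.

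The total count was 131843686 in the library labelled LKO and 128201591 in the control library. A gene was taken as measured when its CPM (read counts scaled to library size with TMM, edgeR's trimmed-mean method) averaged 1 or more and its counts summed to 20 or more, and 11137 genes passed. All 10 NAD genes were measured. Each ratio is LKO over control with an exact 95% interval that covers counting error only, since 1 library per group leaves no spread between animals. Rora itself had 3677 counts in the library labelled LKO and 3701 in the control library, or 24.1 CPM against 33.4 CPM. Because the total over Rora was not lost, every direction here belongs to the library labelled LKO. Scaling by total count instead adds 0.42 to every log2 ratio, and leaving the 20 most abundant genes out of the totals adds 0.12. Hepatocyte markers were strong in both libraries (Alb 91007 CPM in the library labelled LKO and 117952 CPM in control).

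In brief, the library labelled LKO had 9.41-fold less Nnmt, 2.19-fold less Nnt and 1.59-fold more Nmnat3 than control. The other 7 genes, which include Nampt, Qprt, both sirtuins and Parp1, lay within 1.5-fold, with log2 ratios of −0.22 to 0.20. A call needed a 1.5-fold difference and an interval clear of 1. By that rule 1 of the 10 was higher and 2 were lower, where 10.5% of measured genes were higher and 9.76% lower. At 2-fold, Nnmt and Nnt were lower and none was higher, where 2.62% of measured genes were lower and 3.83% higher. The median log2 ratio of the 10 was 0.09, and that of all measured genes was −0.003.

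**Figure D1:**
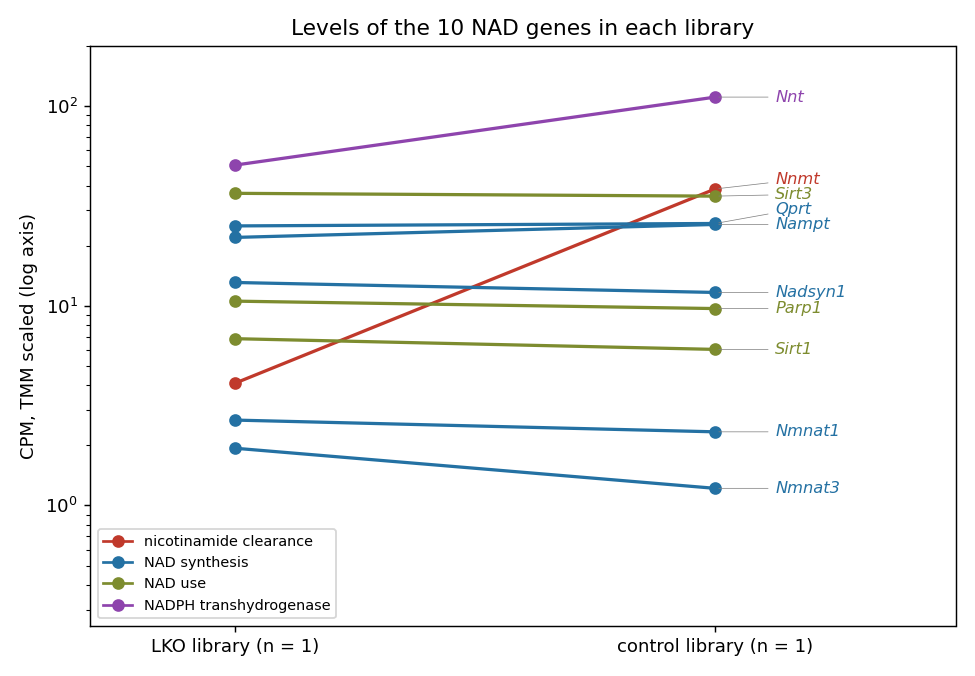
Levels of the 10 genes as TMM-scaled CPM on a log axis, with the library labelled LKO on the left and the control library on the right (n = 1 each, no error bars). The line of Nnmt crosses those of 6 other genes, while 7 lines are nearly level.

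Nnmt lies on chromosome 9 from 48591877 to 48605153 on the minus strand (mm10) and codes for protein. It had 623 counts in the library labelled LKO and 4262 in the control library. Scaled, that was 4.09 CPM in the library labelled LKO and 38.4 CPM in control, a level 9.41-fold lower (interval 8.65 to 10.3). Its log2 ratio of −3.23 stayed at −2.81 under total-count scaling. Only 28 of the 11137 measured genes had a smaller ratio. No annotated gene overlaps Nnmt, and none of the 6 counted genes within 250 kb shared its count difference within 5%. The 3 measured genes nearest to Nnmt in the levels of both libraries were Cdh1, Mup4 and Bcl6, at log2 distances of 0.37, 0.77 and 0.82. With 2 libraries this says only that level and ratio were near. Cdh1 encodes the epithelial adhesion protein E-cadherin and had 4.09 CPM in the library labelled LKO and 29.8 CPM in control. Bcl6, a transcriptional repressor gene, had 7.21 CPM in the library labelled LKO and 37.2 CPM in control. Mup4, a major urinary protein gene whose reads can be shared with close copies, had 2.88 CPM in the library labelled LKO and 57.4 CPM in control.

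In bulk liver, fewer cells of a type and less RNA per cell cannot be told apart, so cell type markers stand beside the value of Nnmt. The 7 hepatocyte markers summed to 109334 CPM in the library labelled LKO and 143902 CPM in control, 1.32-fold lower, with 3 of 7 called lower; total-count scaling brings the log2 ratio of this sum from −0.40 to 0.02. The 6 Kupffer cell markers summed to 41.9 CPM in the library labelled LKO and 75.3 CPM in control, and 4 of the 5 measured were called lower. The 8 stellate cell and fibroblast markers summed to 285 CPM in the library labelled LKO and 196 CPM in control, and 5 of the 8 were called higher. Most of that sum was Dcn, at 210 CPM in the library labelled LKO and 158 CPM in control, while the collagen genes Col1a1, Col1a2 and Col3a1 had ratios of 6.48, 4.03 and 3.09. Summed markers of macrophages and monocytes stood at 47.6 CPM in the library labelled LKO and 65.6 CPM in control. Those of endothelial cells stood at 154 CPM in the library labelled LKO and 141 CPM in control. With total-count scaling the log2 ratio of the macrophage and monocyte sum went from −0.46 to −0.04. Under that scaling the Kupffer cell sum had −0.43, the stellate cell and fibroblast sum 0.96 and the endothelial sum 0.55. Lymphocyte, cholangiocyte and neutrophil markers each summed to under 6 CPM in both libraries, with S100a8 and Cftr at 0 in both and Mpo at 0 in control. Nnmt is also known from adipose tissue. Of the 5 adipocyte markers, Lep, Retn and Plin1 were at 0 in both libraries and Adipoq had 4 counts in the library labelled LKO and 0 in control. Cfd, the remaining one, had 21.5 CPM in the library labelled LKO and 12.0 CPM in control. The part of the hepatocyte, Kupffer, macrophage and stellate shifts in the NAD gene values was not tested.

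**Figure D2:**
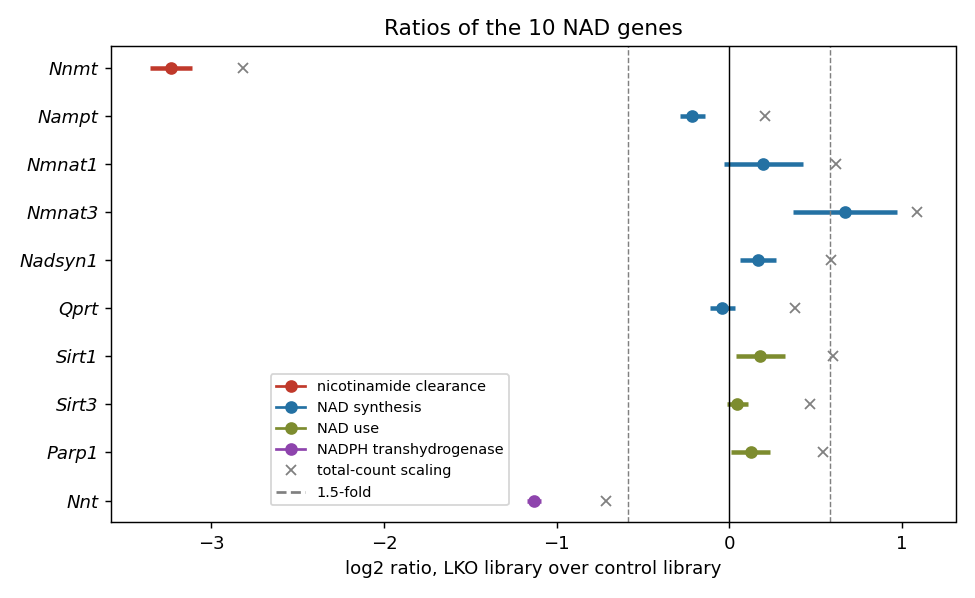
Log2 ratio of each gene, LKO over control, as points with 95% counting intervals (1 library per group), and crosses for total-count scaling. Dashed lines mark 1.5-fold; Nnmt and Nnt lie left of them under both scalings, and Nmnat3 lies right of them.

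Among the synthesis genes, Nampt codes for the rate-limiting enzyme of nicotinamide salvage. It had 3352 counts in the library labelled LKO and 2830 in control, or 22.0 CPM against 25.5 CPM. That was 1.16-fold lower (interval 1.10 to 1.22), a difference short of 1.5-fold whose log2 ratio of −0.22 became 0.20 with total-count scaling. Its direction therefore rests on the scaling.

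Nmnat1 and Nmnat3 encode enzymes that join nicotinamide mononucleotide to the adenylate part of NAD, in the nucleus and, as described, in mitochondria or cytosol. Nmnat1 had 408 counts in the library labelled LKO and 259 in control, or 2.68 CPM against 2.34 CPM. Its ratio of 1.15 had an interval of 0.978 to 1.34 that held 1. Nmnat3 had 295 counts in the library labelled LKO and 135 in control, or 1.93 CPM against 1.22 CPM. It was the only one of the 10 called higher, at 1.59-fold (interval 1.29 to 1.96), and it was also the least abundant. Its level sat close to the 1 CPM filter, and a filter at a mean of 10 CPM left it out. RefSeq lists 6 curated transcripts for Nmnat3, the most of the 10. If reads were counted once per transcript, its level is too high and its interval too narrow, so its call is open to this. Nmnat2, a paralog best known from neurons and named here after its values were seen, was under the filter with 26 counts in the library labelled LKO and 93 in control.

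Qprt and Nadsyn1 act in synthesis from tryptophan. Qprt converts quinolinate to nicotinic acid mononucleotide, and Nadsyn1 amidates nicotinic acid adenine dinucleotide to NAD. Qprt had 3828 counts in the library labelled LKO and 2862 in control, or 25.1 CPM against 25.8 CPM. The log2 ratio of −0.04 had an interval of −0.11 to 0.03, and it turned to 0.38 under total-count scaling and to 0.08 without the 20 most abundant genes. Nadsyn1 had 1994 counts in the library labelled LKO and 1292 in control, or 13.1 CPM against 11.7 CPM, a ratio of 1.12 (interval 1.05 to 1.204).

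Sirt1, Sirt3 and Parp1 use NAD as a substrate. Sirt1 encodes a nuclear deacylase, Sirt3 the main mitochondrial deacetylase, and Parp1 a poly(ADP-ribose) polymerase that responds to DNA breaks. Sirt1 had 1043 counts in the library labelled LKO and 670 in control, or 6.84 CPM against 6.04 CPM (ratio 1.13, interval 1.03 to 1.25). Sirt3 had 5574 counts in the library labelled LKO and 3923 in control, or 36.6 CPM against 35.4 CPM (ratio 1.03, interval 0.991 to 1.08). Parp1 had 1608 counts in the library labelled LKO and 1073 in control, or 10.5 CPM against 9.68 CPM (ratio 1.09, interval 1.01 to 1.18). None of the 3 reached 1.5-fold, although the intervals of Sirt1 and Parp1 lay just above 1. Under total-count scaling 4 of the 10 genes passed 1.5-fold higher, namely Nmnat1, Nmnat3, Nadsyn1 and Sirt1, but so did 34.6% of measured genes; Nnmt and Nnt remained lower, as did 2.53% of measured genes. Psmd13, a proteasome gene, overlaps Sirt3 on the opposite strand with 2533 counts in the library labelled LKO and 2331 in control, and the sources used here do not say whether counting used strand.

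Nnt codes for the mitochondrial transhydrogenase that passes electrons from NADH to NADP to form NADPH. It lies on chromosome 13 from 119335448 to 119408997 on the minus strand (mm10). Nnt had 7713 counts in the library labelled LKO and 12291 in control, or 50.6 CPM against 111 CPM. It was 2.19-fold lower (interval 2.13 to 2.26), and with total-count scaling its log2 ratio of −1.13 became −0.71. Of the measured genes, 209 had a smaller ratio. The C57BL/6J substrain is known for a deletion of several exons of Nnt. The labels name no substrain for either group, and 1 count per gene does not show which exons were read.

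**Figure D3:**
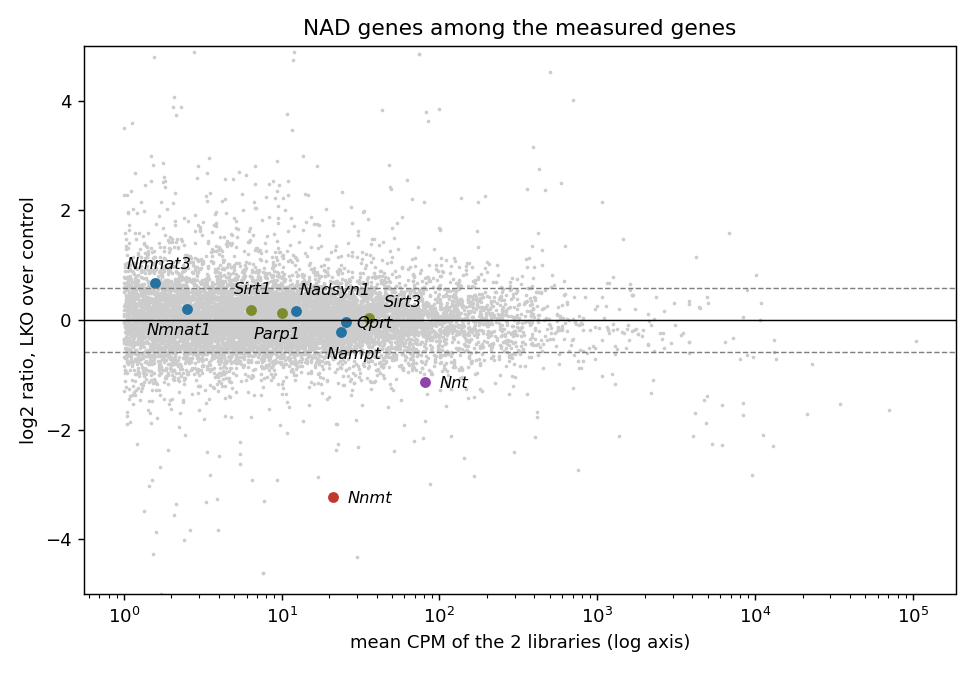
Each grey point is 1 measured gene, with the mean CPM of both libraries on a log axis and the log2 ratio, LKO over control, on the other axis; 25 genes lie beyond the plotted range of 5 either way. The 10 NAD genes are coloured as in the plots of levels and ratios, and Nnmt and Nnt sit below the 1.5-fold line while 7 lie inside the 1.5-fold lines.

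Levels of different genes were compared per kb of the longest annotated transcript. On this length-scaled scale Nnmt was the highest of the 10 in the control library, at 36.9 CPM per kb, ahead of Nnt at 32.0 and Qprt at 12.6. In the library labelled LKO, Nnmt stood at 3.92 CPM per kb, below Nnt (14.6), Qprt (12.2), Sirt3 (11.4), Nadsyn1 (4.95) and Nampt (4.86). The lowest level in both libraries was that of Nmnat3, at 0.893 CPM per kb in the library labelled LKO and 0.562 in control. Nadsyn1 and Nampt changed places between the libraries, with 4.41 and 5.64 CPM per kb in control, a swap that cannot be set against a spread with 1 library each. RefSeq lists 6 curated transcripts for Nmnat3, 3 for Sirt3, 2 for Nnmt, Nmnat1, Nadsyn1 and Sirt1, and 1 for the others. If reads were summed over transcripts, levels of the genes with several would be too high beside the others. The lead of Nnmt over Nnt in control is open to this. A ratio of 1 gene between libraries would not be moved by it if both libraries used the transcripts of that gene alike. A single count per gene does not show whether they did.

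**Figure D4:**
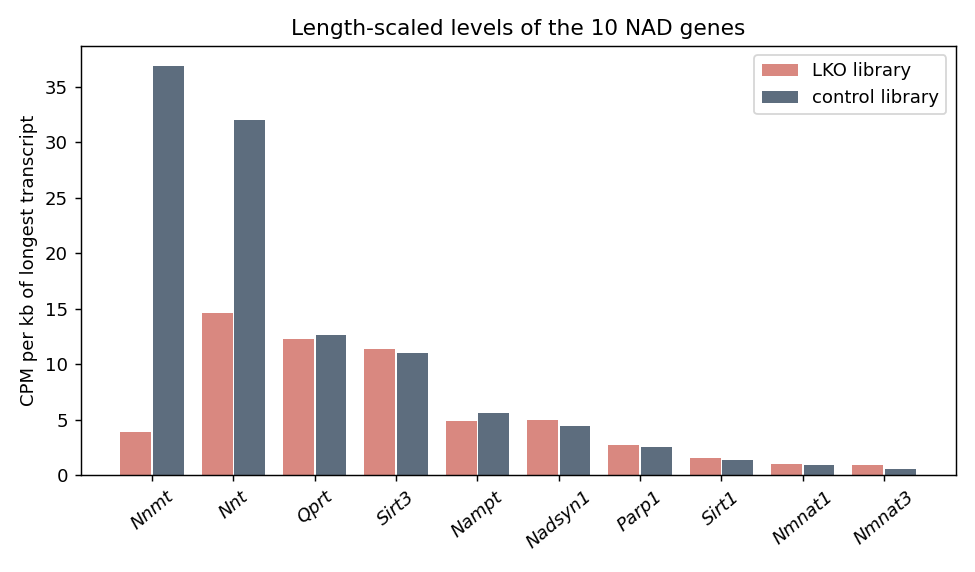
Bars give CPM per kb of the longest transcript for each of the 10 genes, LKO left and control right (n = 1 each, linear axis from 0). Nnmt stands at 3.92 in the library labelled LKO and 36.9 in control, the largest gap of the 10.

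Promoter windows from RefSeq (GRCm38.p6, 250 bases before to 50 after the start) were found for 8 of the 10 genes, and not for Nnmt and Nnt. They were searched on both strands for AGGTCA, the core of the element that ROR receptors bind, and for the longer TAGGTCA. The shorter motif occurred in the windows of Nmnat3 and Nampt, 2 of 10 member windows, while 16.3% of all 32851 windows held it. TAGGTCA occurred in none of the 10 member windows and in 2.61% of all windows. The stretches are shown because these genes include the one called higher; capitals mark AGGTCA, and both lie on the plus strand, at chr9:98296581-98296610 and chr12:32820172-32820201.
Nmnat3: gctgggagcgcaAGGTCAagttcactcgcg
Nampt: aggcaggcgcccAGGTCAcgcgctggggtg
The match of Nmnat3 begins 23 bases after the start that the RefSeq window uses, and that of Nampt begins 151 bases before its start. The window of Nmnat3 lies at an internal start, downstream of position 98287435 on chromosome 9, where GENCODE begins the gene. That of Nampt likewise lies downstream of its GENCODE start, position 32819545 on chromosome 12. A match is a description of letters in a window and not a site of binding, and no binding data were used.

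The rest of the NAD network was followed in 6 lists of 78 counted genes, of which 65 were measured. Among them 10 were called higher and 5 lower, and the log2 ratios had a median of 0.09. The background was the 10.5% higher and 9.76% lower given above.

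The kynurenine route leads from tryptophan to quinolinate, the substrate of Qprt. Its list also holds genes that lead off this path, such as Acmsd. Of the 11 measured genes of the list, 3 were called lower and none higher, and 9 had a log2 ratio below 0. Tdo2, the liver dioxygenase that opens tryptophan, had 97.4 CPM in the library labelled LKO and 176 CPM in control, 1.81-fold lower (interval 1.77 to 1.85). Kynu, which cleaves 3-hydroxykynurenine, had 81.5 CPM in the library labelled LKO and 127 CPM in control, 1.56-fold lower. Acmsd, which draws the precursor of quinolinate away from NAD, had 7.90 CPM in the library labelled LKO and 37.6 CPM in control. It was 4.76-fold lower (interval 4.47 to 5.08), the smallest ratio of the list, and it kept a log2 ratio of −1.83 with total-count scaling. Haao, whose product gives rise to quinolinate, had 241 CPM in the library labelled LKO and 269 CPM in control and lay within 1.5-fold. Ido2 and Got2 had the highest ratios, 1.33 and 1.21. Got2, an aminotransferase of broader use, was also the most abundant, at 411 CPM in the library labelled LKO and 339 CPM in control. The list median of −0.29 turned to 0.13 with total-count scaling, under which Tdo2 and Kynu had log2 ratios of −0.44 and −0.22 and were no longer called. Kynu also lost its call without the 20 most abundant genes, at −0.52.

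Salvage by other precursors, phosphorylation and transport gave 9 measured genes, with 2 called higher and none lower. Nt5e, the ecto-5′-nucleotidase CD73, had 7.24 CPM in the library labelled LKO and 2.47 CPM in control, 2.93-fold higher (interval 2.56 to 3.36). Nt5c2, a cytosolic nucleotidase gene, was 1.75-fold higher, at 52.3 CPM in the library labelled LKO and 29.95 CPM in control. Naprt and Nmrk1 start NAD synthesis from nicotinic acid and nicotinamide riboside, and their ratios were 1.06 and 0.992. Nadk, the cytosolic NAD kinase gene, was the most abundant of the list at 390 CPM in the library labelled LKO and 366 CPM in control. Its mitochondrial counterpart Nadk2 had 82.3 CPM in the library labelled LKO and 107 CPM in control, and did not reach 1.5-fold. The lowest ratio was that of Pnp, a purine nucleoside phosphorylase gene, which just missed the threshold at 1.495-fold lower. It had 14.2 CPM in the library labelled LKO and 21.2 CPM in control, and Pnp2 followed at 1.39-fold lower. With total-count scaling the log2 ratios of Pnp, Pnp2 and Nadk2 were −0.16, −0.05 and 0.04. The list median went from −0.01 to 0.41 under that scaling, and 2 genes were still called higher.

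Genes for disposal of nicotinamide and of N1-methylnicotinamide, the product of Nnmt, had 5 measured members, with 1 called lower and none higher. Aox3, an aldehyde oxidase gene of a family that oxidises N1-methylnicotinamide to pyridones, had 113 CPM in the library labelled LKO and 224 CPM in control. It was 1.98-fold lower (interval 1.95 to 2.02), while its relative Aox1 had 34.4 CPM in the library labelled LKO and 29.8 CPM in control. Cyp2e1, which can form nicotinamide N-oxide, was 1.45-fold higher, at 10482 CPM in the library labelled LKO and 7209 CPM in control. Slc47a1, which encodes an exporter of organic cations, had a ratio of 1.21, under 1.5-fold. With total-count scaling 5 genes of the list were called higher and 0 lower, where 34.6% of all measured genes were higher and 2.53% lower. Among the 5 was Slc22a2, under the filter with TMM (192 counts in the library labelled LKO and 76 in control). Aox3 then had a log2 ratio of −0.57 and was no longer called. Without the 20 most abundant genes 3 were higher, Slc22a2 among them, while higher calls over all measured genes rose from 1169 to 1978.

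Other NAD users had 20 measured members, of which 5 were called higher and none lower, where 10.5% of measured genes were higher and 9.76% lower. The 5 became 3 with upper-quartile scaling and 0 at a mean of at least 10 CPM. The median log2 ratio of the 20 was 0.17. With total-count scaling 11 were called higher, where 34.6% of all measured genes were. Sirt5, a mitochondrial desuccinylase gene, was 1.66-fold higher (interval 1.52 to 1.81), at 11.1 CPM in the library labelled LKO and 6.69 CPM in control. Parp2, a DNA damage-responsive polymerase gene, was 1.60-fold higher and Parp3 1.52-fold higher. Parp10 and Parp8 were called at ratios of 1.51 and 1.502, on the edge of the threshold. Cd38, a membrane NAD glycohydrolase gene of immune and endothelial cells, had the lowest ratio of the list, at 8.77 CPM in the library labelled LKO and 11.6 CPM in control, and was not called. Sirt4 and Parp9 followed with log2 ratios of −0.22 and −0.20, and these, with that of Cd38, turned positive under total-count scaling. Sirt2 and Parp6, the most abundant, had ratios of 1.09 and 0.971.

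Supply of SAM and its use by other small-molecule methyltransferases had 12 measured members, with 1 called lower and none higher. Gnmt, which methylates glycine and is a major consumer of SAM in liver, had 559 CPM in the library labelled LKO and 872 CPM in control. It was 1.56-fold lower (interval 1.55 to 1.58), a call lost with total-count scaling (log2 ratio −0.22) and without the 20 most abundant genes (−0.52). With total-count scaling 4 genes of the list were called higher and 0 lower, where 34.6% of all measured genes were higher and 2.53% lower. Inmt, a close relative of Nnmt by family, was 1.35-fold lower, at 158 CPM in the library labelled LKO and 213 CPM in control, and was not called. Ahcy and Pemt, a hydrolase gene for S-adenosylhomocysteine and the phosphatidylethanolamine methyltransferase gene, were the most abundant by CPM and had log2 ratios of −0.17 each, both positive under total-count scaling. Mat2b, Tpmt and Mat1a had the highest log2 ratios, 0.49, 0.30 and 0.26. Mat1a codes for the SAM synthetase of adult liver. Per kb, Gnmt stood at 540 CPM in the library labelled LKO and 842 in control, beside the 3.92 and 36.9 CPM per kb of Nnmt.

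NADPH-producing enzymes other than Nnt had 8 measured members, with 3 called higher and none lower. Me1, the cytosolic malic enzyme gene, was 2.55-fold higher (interval 2.53 to 2.58), at 892 CPM in the library labelled LKO and 349 CPM in control. Pgd, of the pentose phosphate pathway, was 1.61-fold higher. Idh2, which makes NADPH in mitochondria as Nnt does, was 1.52-fold higher (interval 1.47 to 1.58), at 68.0 CPM in the library labelled LKO and 44.7 CPM in control. G6pdx, which starts the pentose phosphate pathway, had 4.81 CPM in the library labelled LKO and 6.07 CPM in control and was not called. Idh1 and Aldh1l1 had log2 ratios of −0.25 and −0.17, and, like that of G6pdx, they turned positive under total-count scaling.

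**Figure D5:**
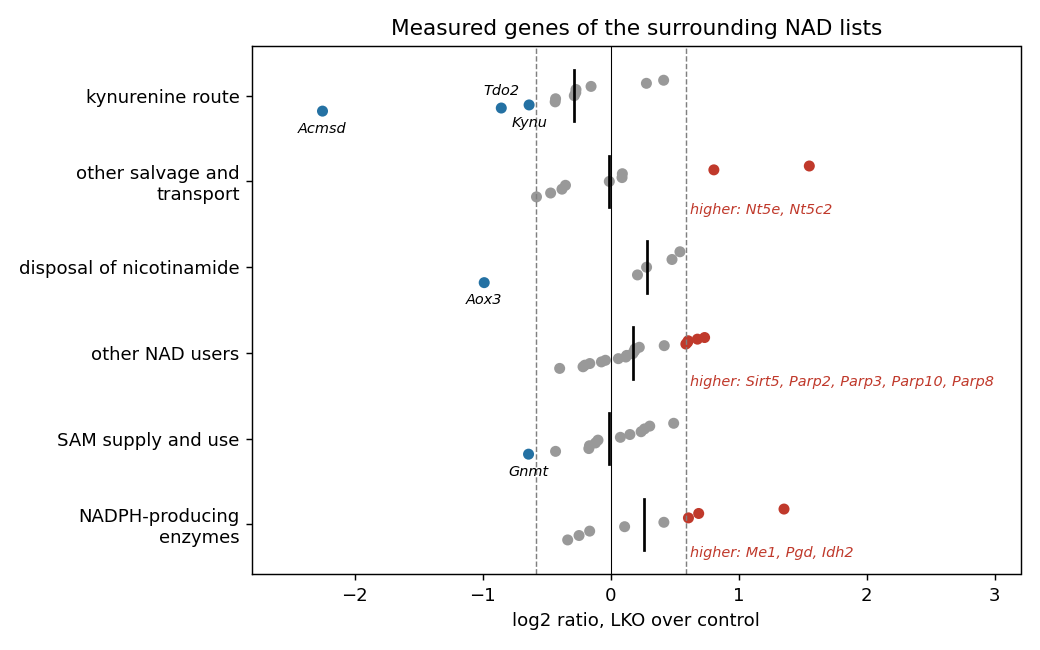
Log2 ratios, LKO over control, of the 65 measured genes in 6 lists of the wider NAD network (1 library per group), with red for genes called higher, blue for lower and grey for neither. Black bars are list medians and dashed lines mark 1.5-fold; Acmsd at −2.25 and Nt5e at 1.55 are the extremes.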

How the data were processed

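Libraries were made with a LEXOGEN mRNA kit from 500 ng of Trizol-extracted liver RNA, per the labels' protocols. The authors deposited raw, unnormalized counts of reads for each gene symbol, in a table per library. TopHat, edgeR and mm10 are named per the submitters' processing notes, without versions or roles; the sources used here do not name the counter, annotation, strand use or treatment of multiple alignments. Where RefSeq lists 2 curated transcripts, 66.8% of low counts (1 to 49) were even numbers in the library labelled LKO and 68.0% in control. Where it lists 1, the shares were 50.8% and 54.3%. Intervals are too narrow where reads were counted more than once.

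TMM factors were 1.16 for the library labelled LKO and 0.865 for control (edgeR 4.0.16, R 4.3.3). CPM are counts over the total times this factor. Ratios have 95% Clopper-Pearson intervals conditional on both counts (scipy 1.17.1). Intervals cover counting error only. They can be too narrow even for that, as PCR copies are not independent molecules. No test was run and no p-value computed. Lengths, coordinates and overlaps come from GENCODE M21 (GRCm38, the assembly of mm10); all 10 members matched there.

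The 10 members, the lists and the markers were chosen with earlier results of these data known. Named were all members, Rora, the 3 nearest genes to Nnmt, and from each list the called genes, up to 3 highest and 3 lowest ratios and the 2 most abundant. Naprt, Nmrk1, Nmnat2 and Slc22a2 fall outside this rule and were named after their values were seen. Some listed genes and markers are not reported here. Poisson counts simulated for this comparison, with 11125 measured genes, gave calls for all 50 genes made 3-fold higher and all 50 made 3-fold lower, for 0 of the 49 and 50 genes moved up and down by 1.2-fold, and for 1 of 10926 unchanged genes, and intervals held the true ratio for 95.3%. They held no spread between animals, no difference in composition between libraries and no reads counted more than once. Their rates came from the mean profile of both libraries and their errors from the model behind the intervals. They therefore check the calculation only, not the rate of false calls in these data. Alternatives were total-count, median-of-ratios (DESeq2 1.42.0), upper-quartile and top-20-free scaling, other filters, folds of 1.2 and 2, and 0.5 added counts.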

Additional observations from a re-analysis of the deposited data

How the results depend on the processing

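No paired analysis was possible because each group has 1 library and no test was made. Nnmt kept its direction under every scaling and with 0.5 counts added, with a log2 ratio from −3.25 to −2.81, the second under total-count scaling. Nnt ranged from −1.15 to −0.71 and Nmnat3 from 0.65 to 1.09 over the same settings. The 2 genes called lower stayed 2 under every alternative run. The 1 called higher became 4 with total-count scaling and 0 with a mean of at least 10 CPM or with a 2-fold threshold. Nampt and Qprt changed sign with total-count scaling, and Qprt also without the 20 most abundant genes. Over all measured genes, 1169 were higher and 1087 lower. These became 3866 and 282 with total-count scaling, 2389 and 2111 with no filter on mean CPM, 431 and 486 at a mean of at least 10 CPM, 426 and 292 at 2-fold, and 2930 and 2922 at 1.2-fold. Without the 20 most abundant genes 1978 were higher. In the 6 other lists, 10 higher and 5 lower became 28 and 1 with total-count scaling, 2 and 1 at 2-fold, and 20 and 17 at 1.2-fold. There, 4 were higher at a mean of at least 10 CPM, 9 were lower with no filter, and 3 were lower without the 20 most abundant genes. Their median log2 ratio of 0.09 became 0.51 with total-count scaling, 0.21 without the 20 most abundant genes and −0.027 at a mean of at least 10 CPM. For the summed markers of cells other than hepatocytes, the log2 ratio of 0.04 moved to 0.46 by total-count scaling and to 0.16 without the 20 most abundant genes. Red blood cell markers made up 51.7% of that sum in the library labelled LKO and 55.3% in control; without them, a choice made after seeing the data, the log2 ratio was 0.16. The sum hides opposite values of −0.85 for Kupffer cell and 0.54 for stellate cell markers. These shifts follow from the scaling, filter or fold itself. Of 177 further values for single genes and lists, 62 moved beyond their counting interval, by over 1.5 times for a count or by over 0.1 for a median, and 22 of these under total-count scaling. Depth limits Nmnat3 and Nmnat1 most, and the lack of a second library per group limits every value.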

Other observations

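Ratios of 2 genes within 1 library do not depend on how libraries are scaled. The pairs below were chosen after the values were seen, their intervals cover counting error only, and no test between animals can be made. Nnmt had 0.186 counts per count of Nampt in the library labelled LKO and 1.51 in control, so this 1 ratio was 8.10-fold lower (interval 7.35 to 8.94). Acmsd had 0.315 counts per count of Qprt in the library labelled LKO and 1.46 in control, 4.63-fold lower (interval 4.27 to 5.02). As Nampt and Qprt lay within 1.5-fold under the scalings run, these ratios mainly repeat the values of Nnmt and Acmsd. Of the 5 other measured genes of nicotinamide disposal, 4 had TMM-scaled ratios above 1, among them Cyp2e1 (1.45) and Aox1 (1.16). Aox3 went the other way, with a TMM-scaled ratio of 0.504.

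Some genes with like roles also parted. Nnt had 0.744 counts per count of Idh2 in the library labelled LKO and 2.48 in control, 3.34-fold lower (interval 3.19 to 3.49). The aldehyde oxidase gene Aox3 had 3.28 counts per count of Aox1 in the library labelled LKO and 7.52 in control, 2.29-fold lower (interval 2.19 to 2.40). Nmnat3 had 0.723 counts per count of Nmnat1 in the library labelled LKO and 0.521 in control. This change of 1.39-fold (interval 1.07 to 1.79) was under 1.5-fold. The 2 Nmnat genes did not part in direction, with TMM-scaled ratios of 1.59 and 1.15.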
